A study of Homo sapiens with 12 samples.

Results

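The epidermal growth factor receptor (EGFR) family was followed through 10 genes of the 28747 in the count table: the receptors EGFR, ERBB2 and ERBB3, the ligands AREG, EREG, HBEGF, TGFA, BTC and EPGN, and the receptor inhibitor ERRFI1. They were taken by gene symbol, each matched to 1 Ensembl identifier, and all 12 libraries were used. The cells were DU145, an established human prostate cancer line. One line stably expressed a lentiviral short hairpin RNA labelled shSigma, directed against the gene under study, and the other a control hairpin labelled shCtrl. Both lines had been transduced and selected, so each knockdown comparison sets 1 line against 1 other line, and the methods name a hairpin clone for the stable lines while the labels do not say which hairpin the sequenced line carried. Each line was sequenced from adherent culture in medium with serum and from tumor spheres, which grow unattached in serum-free medium, with 3 independent replicates in each of the 4 groups. The sphere medium contained added EGF, itself a ligand of EGFR, together with FGF2, insulin and B-27 supplement.

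EGFR family receptors sit in the cell membrane and form pairs when a ligand binds. ERBB2 has no known ligand of its own and ERBB3 has little kinase activity, so both signal through their partners. AREG, EREG, HBEGF, TGFA, BTC and EPGN are made as membrane-bound precursors and bind EGFR once proteases of the ADAM family release them; HBEGF, EREG and BTC can also bind ERBB4. The activated receptors feed the RAS-ERK cascade and the PI3K-AKT branch, while ERRFI1 (MIG6), itself induced by the pathway, binds the receptor kinase domain and blocks it.

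The libraries held 16472722 to 26957777 counts, with a median of 19620493. CPM below are counts scaled to a common library size by TMM and expressed per 1e6 counts. KLK3 and KLK2, markers of prostate luminal cells, had at most 3 counts in any library. All 5 epithelial markers were detected in every group (EPCAM, KRT8, KRT18, KRT19 and CDH1), with a sum of 2285 to 2349 CPM in shCtrl spheres and 878 to 1453 CPM in the other groups. Of the leukocyte markers, the 4 together stayed at or under 1.33 CPM, the 3 endothelial markers at or under 1.29 CPM and the 4 fibroblast markers at or under 26.6 CPM, highest in shCtrl spheres. In such bulk libraries a lower value can mean fewer expressing cells or less RNA in each, which cannot be told apart.

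The ligand genes EPGN, EREG, AREG and BTC lie within 486 kb of chromosome 4. By the GRCh38 annotation of GENCODE release 44, EPGN covers chr4:74308470-74316789, EREG chr4:74365145-74388749 and AREG chr4:74445136-74455005, all on the plus strand, and BTC covers chr4:74744759-74794523 on the minus strand. Their promoters are shown because AREG and EREG moved together in the knockdown while BTC moved the other way and EPGN had at most 3 counts in any library. Each line holds the 250 bases before the transcription start from RefSeq on GRCh38.p14, 5′ to 3′ on the strand of the gene. Capitals mark matches on either strand to the cyclic AMP response element TGACGTCA, the AP-1 site TGANTCA, the TATA box TATAAA or the GC box GGGCGG; no matches overlapped in these 4 windows.
EPGN: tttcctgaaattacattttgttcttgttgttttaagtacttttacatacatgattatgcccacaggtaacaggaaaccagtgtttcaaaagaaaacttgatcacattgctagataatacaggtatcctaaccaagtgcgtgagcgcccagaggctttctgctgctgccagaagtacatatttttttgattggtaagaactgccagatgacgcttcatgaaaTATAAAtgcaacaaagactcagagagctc
EREG: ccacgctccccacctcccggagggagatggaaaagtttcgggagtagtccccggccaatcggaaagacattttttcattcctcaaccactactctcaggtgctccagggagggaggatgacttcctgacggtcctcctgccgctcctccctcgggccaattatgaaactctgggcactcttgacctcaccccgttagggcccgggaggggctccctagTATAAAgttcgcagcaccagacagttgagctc
AREG: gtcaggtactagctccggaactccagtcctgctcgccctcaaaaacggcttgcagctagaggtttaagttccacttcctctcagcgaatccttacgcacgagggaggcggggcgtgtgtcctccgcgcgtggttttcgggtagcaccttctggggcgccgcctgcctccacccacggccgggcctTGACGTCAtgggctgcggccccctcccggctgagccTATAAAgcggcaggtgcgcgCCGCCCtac
BTC: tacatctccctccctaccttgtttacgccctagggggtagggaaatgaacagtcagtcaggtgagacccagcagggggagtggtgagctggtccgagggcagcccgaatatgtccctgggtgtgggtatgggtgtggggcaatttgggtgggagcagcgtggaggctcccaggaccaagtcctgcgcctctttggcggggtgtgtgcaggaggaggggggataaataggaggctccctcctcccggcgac
The windows are chr4:74308220-74308469 for EPGN, chr4:74364895-74365144 for EREG, chr4:74444886-74445135 for AREG and chr4:74794524-74794773 for BTC. A TATA box match stood at -29 from the start of EPGN and AREG and at -32 from that of EREG, whereas BTC held none of the 4 motifs. Among all 35116 promoter windows of the same length, 10.7% held TATAAA. The AREG window alone of the 4 held TGACGTCA, at -65, a motif found in 1.65% of all windows, and a GC box at -9, found in 42.6% of all windows; none of the 4 windows held the AP-1 letters, found in 6.57%. The G and C content was 38.0% in EPGN, 58.0% in EREG, 65.2% in AREG and 62.0% in BTC. The table holds promoters for 9 of the 10 genes, and these matches describe the letters only.

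Which receptors changed with the shSigma knockdown, and whether they did so in both cultures, was asked first. In adherent cells ERBB3 rose and EGFR was called slightly lower, and in tumor spheres EGFR rose while ERBB2 and ERBB3 fell. For each of the 3 receptors the difference of the knockdown effect between cultures passed the test. The tests were edgeR's quasi-likelihood tests with Benjamini-Hochberg adjustment over all genes, and called genes are those with an adjusted p under 0.05.

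EGFR (ENSG00000146648, chr7:55019017-55211628, plus strand) was at 492, 528 and 518 CPM in adherent shCtrl cells and at 470, 460 and 497 CPM in adherent shSigma cells, with overlapping groups. It was lower in both sphere groups, at 223, 194 and 224 CPM in shCtrl and 276, 293 and 309 CPM in shSigma spheres. The sphere groups were separate, with every shSigma library above every shCtrl library. The difference in adherent cells was -0.17 on the log2 scale (SE 0.058, adjusted p = 0.0416) and did not pass in 11 of 13 alternative analyses (adjusted p 0.0291 to 0.50 over all 13), among them those without adherent shCtrl replicate 1 or 2 or without any 1 of the adherent shSigma replicates (0.0881 to 0.50). In spheres EGFR rose 1.37-fold (log2 fold change 0.45, SE 0.069, adjusted p = 1.47e-04), and the test of the difference between cultures gave 0.56 (SE 0.10, adjusted p = 9.15e-04). EGFR overlaps EGFR-AS1 on the other strand, and the use of strand in counting is not stated, so reads of the pair may not be separated.

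ERBB2, the preferred partner of the other receptors (ENSG00000141736, chromosome 17), was at 59.7, 78.1 and 94.7 CPM in adherent shCtrl cells and at 122.7, 137 and 97.8 CPM in adherent shSigma cells. The groups were separate but each was widely spread. The log2 difference of 0.57 (SE 0.20) had an adjusted p of 0.061. It passed in 5 of 13 alternative analyses (adjusted p 0.00186 to 0.137 over all 13), among them those without adherent shCtrl replicate 3 (0.0408) or adherent shSigma replicate 3 (0.0161). In spheres ERBB2 was at 277, 248 and 294 CPM in shCtrl and at 170, 168 and 169 CPM in shSigma libraries, a 1.62-fold fall (log2 fold change -0.70, SE 0.065, adjusted p = 2.49e-06). The change in spheres was lower than that in adherent cells by 1.32 on the log2 scale (SE 0.22, adjusted p = 0.00125). ERBB2 overlaps MIEN1, PGAP3 and MIR4728.

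ERBB3, the receptor that couples most strongly to PI3K (ENSG00000065361, chromosome 12), was at 56.5, 57.2 and 57.6 CPM in adherent shCtrl cells and at 77.5, 81.1 and 86.5 CPM in adherent shSigma cells. In spheres the order was the reverse, with 100.1, 96.3 and 96.3 CPM in shCtrl and 69.0, 71.6 and 70.1 CPM in shSigma libraries. ERBB3 rose 1.37-fold in adherent cells (log2 fold change 0.45, SE 0.060, adjusted p = 6.48e-04) and fell 1.39-fold in spheres (log2 fold change -0.48, SE 0.054, adjusted p = 1.25e-05). The difference between cultures was -0.99 (SE 0.083, adjusted p = 1.42e-06), and all 3 values passed in every alternative analysis run. ERBB4 was close to the limit of detection, at 0.24 to 1.18 CPM over the 12 libraries.

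**Figure D1:**
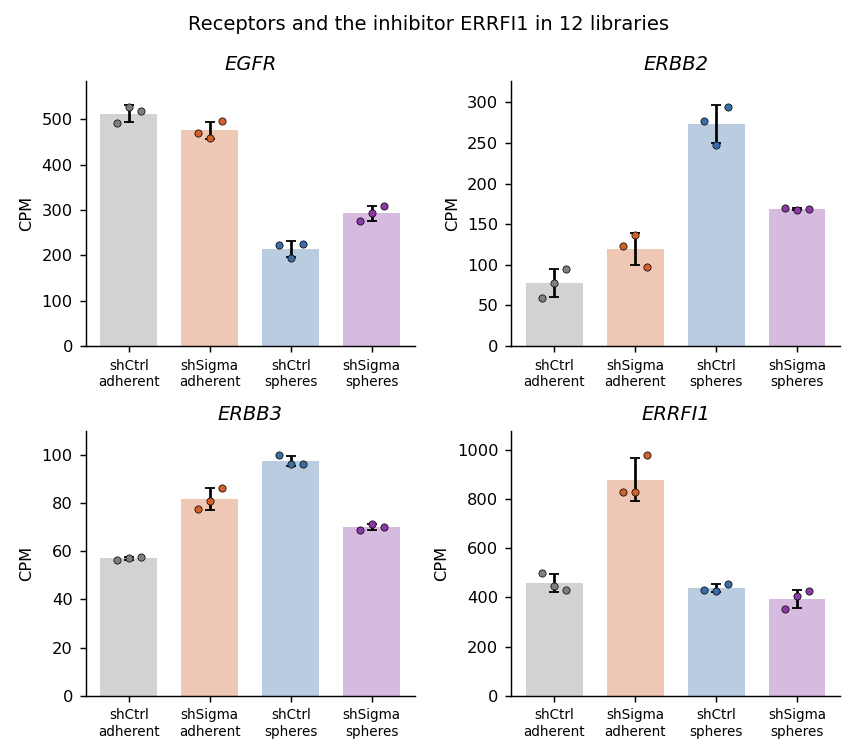
Receptor and ERRFI1 levels in CPM on a linear axis from 0, in the 4 groups of 3 libraries; points are libraries, bars are means and error bars are SD. EGFR was lower in spheres than in adherent cells of both lines, ERBB3 was highest in shCtrl spheres at 96.3 to 100.1 CPM, and ERRFI1 was highest in adherent shSigma cells at 827 to 980 CPM.

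The receptors also differed between the cultures of shCtrl cells, in which EGFR fell and ERBB2 and ERBB3 rose from adherent cells to spheres. Attachment, medium and, by the paper's account, the cells that survive differ between these cultures and cannot be told apart. The log2 fold changes were -1.26 for EGFR (SE 0.075, adjusted p = 7.56e-06), 1.82 for ERBB2 (SE 0.17, adjusted p = 1.7e-04) and 0.77 for ERBB3 (SE 0.058, adjusted p = 2.37e-05). In shSigma cells EGFR fell by 0.68 (SE 0.055, adjusted p = 6.69e-05), ERBB2 rose by 0.52 (SE 0.14, adjusted p = 0.0218) and ERBB3 fell by 0.20 (SE 0.052, adjusted p = 0.0168). The call for ERBB2 was lost in 5 of 13 alternative analyses, 4 of which left out adherent shSigma replicate 1 or any 1 of the shSigma sphere replicates (adjusted p 0.0534 to 0.0706), and that for ERBB3 in 3, including those without shSigma sphere replicate 1 (0.0592) or 3 (0.0614). Knockdown and culture comparisons share libraries, so these values are not independent of those given above. Per kb of exon, ERBB2 counts were 0.233 ± 0.048 of those of EGFR in adherent shCtrl cells, 0.389 ± 0.079 in adherent shSigma cells, 1.97 ± 0.054 in shCtrl spheres and 0.892 ± 0.054 in shSigma spheres (SD, n = 3). Only in shCtrl spheres did ERBB2 exceed EGFR on this scale, which it did in each of the 3 libraries, at 1.92, 1.98 and 2.03. The shSigma sphere libraries stood at 0.84 to 0.95. The lengths are those of all annotated exons, 15941 bases for EGFR and 10321 bases for ERBB2. Other lengths would move these ratios.

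The ligands were compared next. AREG and EREG, the most abundant ligand transcripts of shCtrl cells, fell with the knockdown in both cultures, and BTC rose in both. TGFA rose in adherent cells, and HBEGF showed small differences that depended on the analysis. EPGN had 0 to 3 counts in every library and was not tested.

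AREG, amphiregulin (ENSG00000109321), was at 280, 245 and 235 CPM in adherent shCtrl cells and at 65.9, 61.8 and 68.8 CPM in adherent shSigma cells. In spheres it was at 435, 540 and 491 CPM in shCtrl and at 97.0, 88.1 and 95.6 CPM in shSigma libraries. In both cultures every shSigma library was far below every shCtrl library. AREG fell 4.05-fold in adherent cells (log2 fold change -2.02, SE 0.091, adjusted p = 7.95e-06) and 5.24-fold in spheres (log2 fold change -2.39, SE 0.077, adjusted p = 6.14e-10). The difference between cultures, -0.43 (SE 0.12, adjusted p = 0.0174), was lost in 8 of 18 alternative analyses, all of which left out 1 library (adherent shCtrl replicate 2 or 3, adherent shSigma 1 or 3, shCtrl sphere 2 or 3, or shSigma sphere 2 or 3; adjusted p 0.0567 to 0.0987).

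EREG, epiregulin (ENSG00000124882), lies next to AREG on chromosome 4 and fell more in adherent cells than in spheres. It was at 225, 226 and 204 CPM in adherent shCtrl cells against 51.0, 50.8 and 51.0 CPM in adherent shSigma cells, a 4.48-fold fall (log2 fold change -2.16, SE 0.078, adjusted p = 3.6e-06). In spheres it was at 180, 185 and 195 CPM in shCtrl and at 78.6, 80.8 and 82.0 CPM in shSigma libraries, a 2.33-fold fall (log2 fold change -1.22, SE 0.054, adjusted p = 5.29e-09). For EREG the fall was smaller in spheres by 0.88 on the log2 scale (SE 0.084, adjusted p = 4.45e-06), a difference kept in every alternative analysis. The ratio of AREG to EREG counts was 1.16 ± 0.080 in adherent shCtrl, 1.29 ± 0.067 in adherent shSigma, 2.62 ± 0.27 in shCtrl sphere and 1.16 ± 0.072 in shSigma sphere libraries (SD, n = 3), and was therefore higher in each shCtrl sphere library than in any other library. The 40 tested genes nearest to AREG had a median log2 fold change of -0.18 in adherent cells and 0.0061 in spheres.

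BTC, betacellulin (ENSG00000174808), on the same stretch of chromosome 4, was a low transcript and moved the other way. It was at 3.76, 3.76 and 3.04 CPM in adherent shCtrl cells and at 6.19, 6.66 and 7.19 CPM in adherent shSigma cells, and at 5.33, 5.74 and 5.34 CPM in shCtrl spheres and 9.02, 7.63 and 10.1 CPM in shSigma spheres. The groups were separate in both cultures. BTC rose 1.81-fold in adherent cells (log2 fold change 0.86, SE 0.15, adjusted p = 0.00213) and 1.62-fold in spheres (log2 fold change 0.70, SE 0.13, adjusted p = 5.73e-04). A difference between cultures was not detected, at -0.22 with an SE of 0.19 (adjusted p = 0.434).

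TGFA, transforming growth factor alpha (ENSG00000163235, chromosome 2), was at 23.96, 26.4 and 24.97 CPM in adherent shCtrl cells and at 72.3, 75.7 and 82.5 CPM in adherent shSigma cells. In spheres both lines were close to the adherent shCtrl level, at 21.5, 19.3 and 19.9 CPM in shCtrl and 21.2, 23.6 and 23.6 CPM in shSigma libraries, with overlapping groups. TGFA rose 2.93-fold in adherent cells (log2 fold change 1.55, SE 0.073, adjusted p = 8.19e-06), whereas in spheres the difference was 0.17 (SE 0.085, adjusted p = 0.109). The difference between cultures, -1.44 (SE 0.11, adjusted p = 8.06e-07), passed in every alternative analysis.

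HBEGF, heparin-binding EGF-like growth factor (ENSG00000113070, chromosome 5), was at 29.4, 27.5 and 24.1 CPM in adherent shCtrl and at 19.8, 20.2 and 24.2 CPM in adherent shSigma cells, with overlapping groups. In spheres it was at 8.84, 10.9 and 11.7 CPM in shCtrl and at 12, 13.0 and 10.6 CPM in shSigma libraries. The knockdown difference was -0.40 in adherent cells (SE 0.12, adjusted p = 0.0215), lost in 6 of 13 alternative analyses including those without adherent replicate 1 or 2 of either line (adjusted p 0.115 to 0.164), and 0.17 in spheres (SE 0.13, adjusted p = 0.266). The test of the difference between cultures stood at the threshold (0.51, SE 0.18, adjusted p = 0.0491) and was lost in 8 of 18 alternative analyses, 7 of which left out 1 library (adherent replicate 1 or 2 of either line, shCtrl sphere replicate 1, or shSigma sphere replicate 1 or 2; adjusted p 0.0521 to 0.114). By contrast, HBEGF fell from adherent cells to spheres in both lines, 2.57-fold in shCtrl (log2 fold change -1.36, SE 0.13, adjusted p = 9.2e-05) and 1.77-fold in shSigma cells (log2 fold change -0.82, SE 0.11, adjusted p = 7.07e-04).

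**Figure D2:**
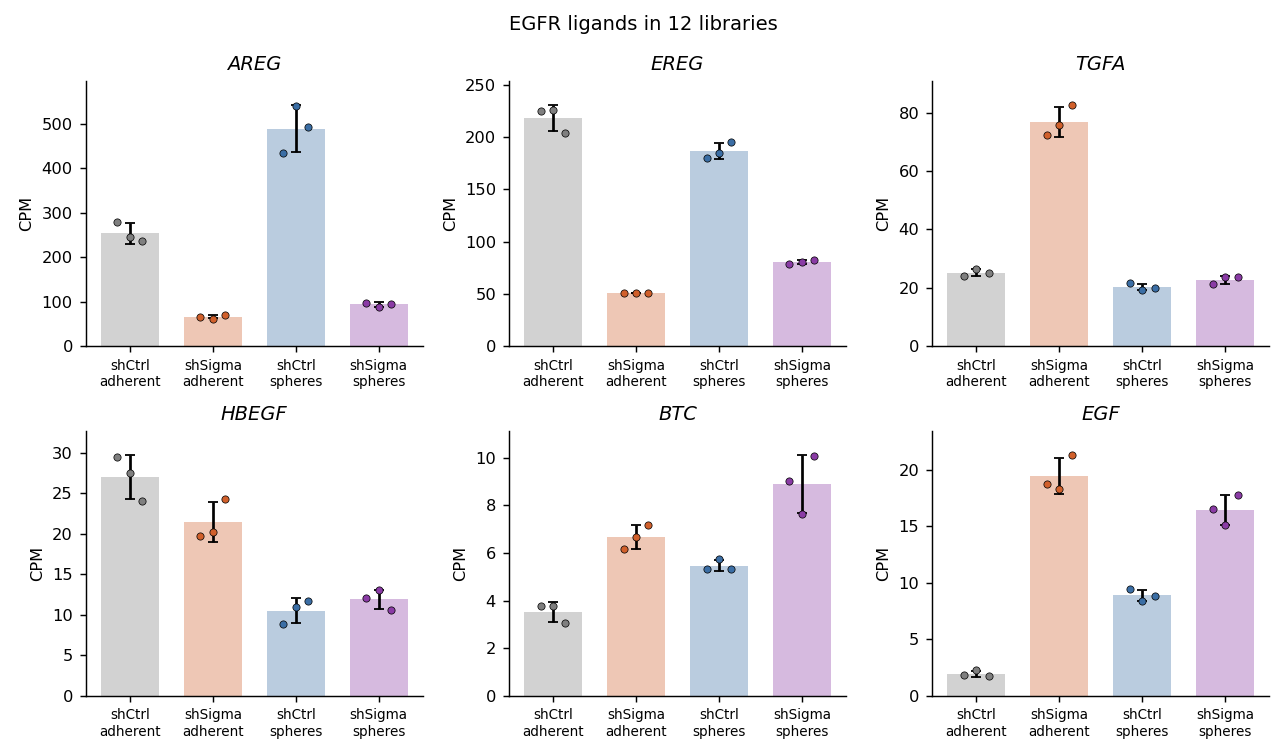
Ligand levels in CPM on linear axes from 0, in the 4 groups of 3 libraries; points are libraries, bars are means and error bars are SD. AREG and EREG were lower in shSigma than in shCtrl libraries of both cultures, TGFA stood apart in adherent shSigma cells at 72.3 to 82.5 CPM, and EGF was lowest in adherent shCtrl cells at 1.74 to 2.24 CPM.

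From adherent cells to spheres, AREG rose 1.93-fold in shCtrl cells (log2 fold change 0.95, SE 0.099, adjusted p = 1.33e-04) and 1.45-fold in shSigma cells (log2 fold change 0.54, SE 0.058, adjusted p = 2.66e-04). EREG fell by 0.22 in shCtrl cells (SE 0.065, adjusted p = 0.0202), a call lost in 5 of 13 alternative analyses including those without adherent shCtrl replicate 2 or shCtrl sphere replicate 1 or 2 (0.0584 to 0.0857), and rose by 0.68 in shSigma cells (SE 0.053, adjusted p = 4.91e-05). TGFA fell by 0.31 in shCtrl cells (SE 0.087, adjusted p = 0.0169), a call lost in 4 of 13 alternative analyses including those without adherent shCtrl replicate 2 or shCtrl sphere replicate 2 or 3 (0.0513 to 0.0777), and by 1.73 in shSigma cells (SE 0.071, adjusted p = 2.57e-06). BTC rose by 0.63 in shCtrl cells (SE 0.14, adjusted p = 0.00629) and by 0.44 in shSigma cells (SE 0.13, adjusted p = 0.0235), the second of which was lost in 4 of 13 alternative analyses including those without adherent shSigma replicate 1 or shSigma sphere replicate 1 or 3 (0.071 to 0.0899).

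Of the other family genes that were tested, EGF itself had the largest change. It was at 1.81, 2.24 and 1.74 CPM in adherent shCtrl cells and at 18.7, 18.3 and 21.3 CPM in adherent shSigma cells, a 9.64-fold rise (log2 fold change 3.27, SE 0.14, adjusted p = 7.03e-06). In shCtrl spheres EGF was at 9.43, 8.39 and 8.82 CPM and in shSigma spheres at 16.5, 15.1 and 17.7 CPM, a 1.85-fold rise (log2 fold change 0.89, SE 0.10, adjusted p = 1.41e-05). The groups were separate in both cultures, and the rise in EGF was larger in adherent cells, with a difference between cultures of -2.45 (SE 0.17, adjusted p = 2.49e-07). Among the ERBB3 and ERBB4 ligands, NRG1 was at 0.085 to 1.01 CPM and NRG4 at 0.83 to 2.67 CPM, NRG2 at 4.23 to 7.14 CPM, and NRG3 at or near 0. In adherent cells 1 of the 4 tested genes of this list rose (EGF) and 1 fell (ERBB4, from 0.99 to 1.18 CPM to 0.24 to 0.67 CPM, adjusted p = 0.0161). Of all genes tested there, 22.3% were called higher and 27.7% lower. In spheres 2 of 5 rose, EGF and the low NRG1 (from 0.41 to 0.50 CPM to 0.74 to 1.01 CPM, adjusted p = 0.0166). The shares of all genes in spheres were 30.2% higher and 30.9% lower, and nothing particular to the list is read from these counts. NRG2 and NRG4 were not called in either knockdown comparison.

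Per kb of exon, AREG and EREG together made up 92.4% ± 0.36 of the summed counts of the 6 ligands and EGF in adherent shCtrl cells, 63.7% ± 1.43 in adherent shSigma cells, 96.8% ± 0.26 in shCtrl spheres and 83.4% ± 0.57 in shSigma spheres (SD, n = 3). TGFA made up 2.47% ± 0.27 of this sum in adherent shCtrl cells, 20.4% ± 0.72 in adherent shSigma cells, 1.22% ± 0.19 in shCtrl spheres and 5.45% ± 0.45 in shSigma spheres. AREG was the largest part in all 12 libraries, at 51.1% to 88.4%. The shares of a sum are bound to each other, and they count transcripts, not released protein.

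ERRFI1, the feedback inhibitor of the receptor kinase (ENSG00000116285, chromosome 1), was at 497, 447 and 430 CPM in adherent shCtrl cells and at 827, 828 and 980 CPM in adherent shSigma cells. In spheres it was at 431, 426 and 455 CPM in shCtrl and at 355, 405 and 424 CPM in shSigma libraries, with each shSigma library just below each shCtrl library. ERRFI1 rose 1.83-fold in adherent cells (log2 fold change 0.87, SE 0.091, adjusted p = 2.13e-04), and the difference in spheres was -0.15 (SE 0.068, adjusted p = 0.0745), which passed in 4 of 13 alternative analyses (adjusted p 0.0137 to 0.379 over all 13) including those without shCtrl sphere replicate 2 (0.0415) or shSigma sphere replicate 3 (0.0473). The difference between cultures was -1.09 (SE 0.12, adjusted p = 2.44e-05). From adherent cells to spheres the difference was -0.07 in shCtrl cells (SE 0.072, adjusted p = 0.446), while ERRFI1 fell 2.19-fold in shSigma cells (log2 fold change -1.13, SE 0.083, adjusted p = 3.93e-05).

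**Figure D3:**
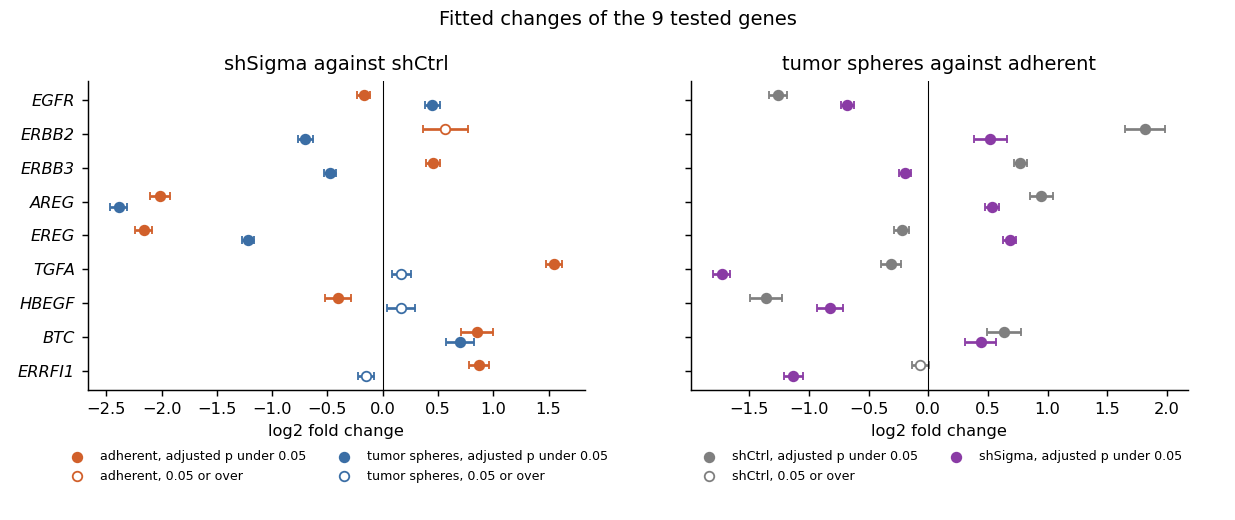
Fitted log2 fold changes (horizontal axis) of the 9 tested genes, shSigma against shCtrl on the left and tumor spheres against adherent cells on the right; bars are standard errors and filled points had an adjusted p under 0.05. AREG and EREG lay left of 0 in both knockdown comparisons, from -2.39 to -1.22, and ERBB3 lay on opposite sides of 0, at 0.45 and -0.48.

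Counted together, 8 of the 9 tested genes were called in the adherent knockdown comparison, 4 higher and 4 lower, where 22.3% of all 13764 tested genes were called higher and 27.7% lower. In spheres 6 of 9 were called, 2 higher and 4 lower, against 30.2% higher and 30.9% lower of all 13774 genes. In the culture comparison 8 of 9 were called in shCtrl cells, 4 higher and 4 lower, against 27.4% and 26.3% of all genes, and 9 of 9 in shSigma cells, 4 higher and 5 lower, against 21.9% and 25.2%. The knockdown effect differed between cultures for 8 of 9, with 3 more positive and 5 more negative in spheres, against 12.7% and 15.6% of all 14175 genes tested. From 6414 to 8414 of all genes were called in each comparison of a pair of groups, so the count of calls among 9 genes says little by itself.

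The order of the 10 genes on the scale of CPM per kb of exon was led by AREG and ERRFI1. In adherent shCtrl cells AREG stood at 154 ± 14.2 CPM per kb, followed by ERRFI1 at 109.6 ± 8.43, EREG at 38.2 ± 2.18 and EGFR at 32.2 ± 1.16 (SD, n = 3). In adherent shSigma cells ERRFI1 led at 210.2 ± 21.1, ahead of AREG at 39.9 ± 2.16, EGFR at 29.8 ± 1.21 and TGFA at 15.6 ± 1.06. In shCtrl spheres the order was AREG at 298 ± 32.1, ERRFI1 at 105 ± 3.71, EREG at 32.7 ± 1.38 and ERBB2 at 26.5 ± 2.29, and in shSigma spheres ERRFI1 at 94.4 ± 8.61, AREG at 57.0 ± 2.92, EGFR at 18.4 ± 1.05 and ERBB2 at 16.3 ± 0.070. Neighbours in this order had overlapping libraries for HBEGF with ERBB2 and TGFA with ERBB3 in adherent shCtrl cells, HBEGF with ERBB3 in adherent shSigma cells, and TGFA with HBEGF and HBEGF with BTC in shSigma spheres; all other neighbours were separate, and EPGN was last in every group. The length used is that of all annotated exons of a gene, which is 15941 bases for EGFR and 1642 bases for AREG, and it understates genes with many alternative exons.

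Whether EGFR moved with the rest of chromosome 7 was also examined, since genes of this chromosome were on the whole higher in the shSigma line. The median log2 fold change over chromosome 7 was 0.41 in adherent cells (666 genes) and 0.44 in spheres (668 genes), and 74.2% and 75.4% of its genes lay above 0. EGFR did not lie in the part that was raised. When the chromosome was divided at 60 Mb, a position chosen after the values were seen, genes below it, EGFR left out, had a median of -0.02 in adherent cells (228 genes) and 0.0040 in spheres (232 genes), against 0.58 (437 genes) and 0.57 (435 genes) above it. The 40 tested genes nearest to EGFR had medians of -0.08 and -0.07. With this local median subtracted, EGFR differed by -0.09 in adherent cells (adjusted p = 0.249) and by 0.52 in spheres. For the other tested genes the local medians lay between -0.21 and 0.08 in the 2 knockdown comparisons, and subtracting them changed the call for HBEGF in spheres (0.38, adjusted p = 0.0228) and ERRFI1 in spheres (-0.23, adjusted p = 0.0137).

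The genes that act with the receptors were counted from 5 further lists, whose counts are to be read against the 22.3% of all tested genes called higher and 27.7% called lower in adherent cells, and the 30.2% and 30.9% in spheres. Nothing particular to a list is read from these counts. Of the 12 genes that cut or transport the ligands, 2 rose and 4 fell in adherent cells, against 22.3% and 27.7% of all genes. BACE1, an aspartic protease of membrane proteins, rose from 34.2 to 83.8 CPM (log2 fold change 1.23, adjusted p = 1.65e-05), and RHBDF1, an inactive rhomboid protein, from 11.0 to 22.5 CPM (0.98, adjusted p = 0.0209). CNIH1, a relative of the fly cargo receptor cornichon that carries a TGFA-like ligand, fell from 271 to 163 CPM (-0.80, adjusted p = 2.37e-04). In spheres 6 of 11 rose and 3 fell, against 30.2% and 30.9%, among them FURIN, which cleaves precursor proteins (0.72, adjusted p = 3.6e-05), CNIH1 again (-0.69, adjusted p = 1.42e-06) and RHBDF2, a partner of the sheddase ADAM17 (-0.43, adjusted p = 0.0134). The 40 tested genes nearest to CNIH1 had a median log2 fold change of -0.37 in adherent cells and -0.47 in spheres, and those nearest to RHBDF1 one of 0.43 in adherent cells. ADAM17 itself was at 224 and 174 CPM in adherent shCtrl and shSigma cells (-0.43, adjusted p = 7.11e-04) and at 180 and 185 CPM in spheres (0.04, adjusted p = 0.524).

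Of the 19 tested genes of the RAS-ERK cascade, 5 rose and 3 fell in adherent cells, against 22.3% and 27.7% of all genes, and 6 rose and 5 fell in spheres, against 30.2% and 30.9%. NRAS, a RAS protein, fell from 208 to 97.9 CPM in adherent cells (log2 fold change -1.16, adjusted p = 3.84e-05), where its 40 nearest genes had a median of -0.50, and SHC1, an adaptor that binds activated EGFR, rose from 892 to 1733 CPM (0.90, adjusted p = 9.76e-04). KSR1, a scaffold of the cascade, rose in both cultures, by 0.97 in adherent cells (adjusted p = 1.31e-04) and by 0.70 in spheres (adjusted p = 1.39e-05). In spheres GAB2, a docking protein, rose from 9.76 to 14.96 CPM (0.61, adjusted p = 8.22e-04).

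In the PI3K-AKT, PLCG1 and STAT list, 3 of 14 tested genes rose and 1 fell in adherent cells, against 22.3% and 27.7% of all genes, and 3 rose and 5 fell in spheres, against 30.2% and 30.9%. PIK3R3, a regulatory subunit of PI3K, fell in both cultures, from 31.2 to 12.3 CPM in adherent cells (log2 fold change -1.41, adjusted p = 6.28e-05) and from 57.3 to 25.5 CPM in spheres (-1.17, adjusted p = 4.44e-08); its 40 nearest genes had medians of -0.53 and -0.14. The transcription factors STAT5B (0.37, adjusted p = 0.00209) and STAT3 (0.36, adjusted p = 0.00143) rose in adherent cells, where their 40 nearest genes had medians of 0.19 and 0.18. Both fell in spheres, STAT5B (-0.51, adjusted p = 4.03e-06) more than STAT3 (-0.28, adjusted p = 0.00142). In spheres INPP4B, a lipid phosphatase that counters PI3K, fell from 22.9 to 6.97 CPM (-1.72, adjusted p = 5.4e-08), and STAT5A fell by 0.54 (adjusted p = 0.00454).

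Of the genes that ERK induces or that feed back on it, 12 of 22 tested genes fell and 5 rose in adherent cells, against 27.7% lower and 22.3% higher of all genes, and the median log2 fold change of the list was -0.37 against -0.01 over all genes. LIF, a cytokine, fell from 141 to 52.7 CPM (-1.48, adjusted p = 2.05e-04), EPHA2, a receptor kinase, from 165 to 78.4 CPM (-1.12, adjusted p = 0.0301) and SPRY4, a Sprouty inhibitor of RAS signalling, from 10.6 to 5.54 CPM (-1.0, adjusted p = 0.00111). With the replicate number as a block, or without the adherent shCtrl replicate 2, 11 of the 22 were called in either direction in place of 17. In spheres 9 of 23 rose and 10 fell, against 30.2% and 30.9%, with a list median of -0.11 against 0.0015. SPRY2 rose from 14.4 to 42.9 CPM (1.57, adjusted p = 3.81e-08), the transcription factor ETV1 from 3.04 to 7.56 CPM (1.32, adjusted p = 1.21e-05) and DUSP5, a nuclear phosphatase of ERK, from 31.7 to 75.6 CPM (1.25, adjusted p = 1.14e-08; median of its 40 nearest genes 0.40).

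Receptor down-regulation, by ubiquitin ligases, endocytosis and phosphatases, had 6 of 23 tested genes higher and 6 lower in adherent cells, against 22.3% and 27.7% of all genes, and 8 higher and 7 lower in spheres, against 30.2% and 30.9%. PTPN1, a tyrosine phosphatase that acts on EGFR, rose in both, from 99.4 to 296 CPM in adherent cells (log2 fold change 1.51, adjusted p = 4.41e-06) and from 125 to 380 CPM in spheres (1.6, adjusted p = 2.09e-09). RNF41, a ubiquitin ligase of ERBB3, rose by 0.83 (adjusted p = 4.58e-05) and SOCS3, a suppressor of cytokine signalling, by 0.78 (adjusted p = 0.00353; median of its 40 nearest genes 0.31) in adherent cells. HGS, which sorts receptors on endosomes, rose by 0.85 (adjusted p = 5.18e-05; median of its 40 nearest genes 0.35) and EPN1, an adaptor of endocytosis, by 0.79 (adjusted p = 8.55e-04) in spheres.

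The patterns of 6 of the genes were also compared with those of all 10797 genes with a mean of at least 5 CPM, by Pearson correlation of log2 CPM over the 12 libraries. These libraries form 4 groups and share their lines and cultures, so the coefficients only describe likeness. The genes most like EGFR were CELF2 (r = 0.996) and ASAP1 (0.992), and those most like ERBB2 were CHRD (0.986), FLOT2 (0.983) and ZNF710 (0.982). ERBB3 was most like NR3C1 (0.994), GALNT12 (0.985) and STAT5B (0.984). AREG was most like EPCAM (0.997), CPVL (0.996) and DHRS7 (0.995), and EPCAM, an epithelial surface marker, was at 235 CPM in adherent shCtrl, 30.9 CPM in adherent shSigma, 613 CPM in shCtrl sphere and 61.9 CPM in shSigma sphere libraries on average. EREG was most like ARSB (0.994), PRMT6 (0.992) and LINC01270 (0.989), and HBEGF was most like ZCCHC4 (0.987), CEP57L1 (0.987) and TM4SF1 (0.982). The other epithelial markers did not all follow EPCAM. In adherent cells the mean levels in shCtrl and shSigma libraries were 234 and 413 CPM for KRT8, 321 and 502 CPM for KRT18, 92.7 and 359 CPM for KRT19 and 26.8 and 12.01 CPM for CDH1, and the sum of the 5 markers was 878 to 964 CPM in shCtrl and 1141 to 1453 CPM in shSigma libraries. In spheres this sum was 2285 to 2349 CPM in shCtrl and 897 to 954 CPM in shSigma libraries. There the means in shCtrl and shSigma libraries were 384 and 333 CPM for KRT8 and 391 and 289 CPM for KRT18. They were 198 and 218 CPM for KRT19 and 727 and 27.8 CPM for CDH1. The part of these markers in the fall of AREG was not tested.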

How the data were processed

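Poly(A) RNA of 12 DU145 libraries, 3 in each of 4 groups named in the labels, was read from one end on a NextSeq500 after directional library preparation. The authors aligned the reads to GRCh38.p12 with STAR (version 2.6.1c in the submitters' processing notes) and deposited raw counts per gene, without normalization; the annotation, the use of strand and the handling of reads with several alignments are not given in the sources used here. Of the 28747 identifiers, 26153 had a symbol in GENCODE release 44, and no count column was left unused.

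The analysis of these counts used R 4.3.3 with edgeR 4.0.16 and limma 3.58.1. TMM scaling gave the CPM, and filterByExpr set aside genes of low count (minimum 10). A separate robust quasi-likelihood fit was made for each pair of groups, and its two-sided p-values were adjusted by Benjamini-Hochberg across the tested genes, with fold changes fitted at a prior count of 0.125. The difference between cultures was the interaction term in a fit of all 12 libraries, as spheres minus adherent cells. No library pair differed by less than sampling noise (chi-square per gene 2.73 to 43.9 over 12 pairs of replicates). The scripts were tested on simulated counts with 200 changed genes. An exact permutation test of 3 against 3 libraries cannot give a p under 0.1 and was not used.

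The 10 genes and the lists were chosen with earlier results of these data known. Beyond them the text names the other family genes, in each list and knockdown comparison up to 3 called genes with the largest change, a mean of at least 5 CPM and separate groups, and the 3 genes most like each of 6 genes (log2 CPM with a prior count of 2). ADAM17, the sphere values of STAT3 and STAT5B, and the genes of the ERK plot caption were chosen with their values in view. Other analyses run were DESeq2 (1.42.0), edgeR with the size factors of DESeq2, dropping the filter, requiring 10 or more counts in each library, the replicate number as a block, the median of the 40 nearest genes subtracted, 1 fit of all 12 libraries, and leaving out each library. Some genes that this rule names, and the check of the targeted gene, are not reported here.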

Additional observations from a re-analysis of the deposited data

Results flagged for a closer look

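The effect of the knockdown differed between tumor spheres and adherent cells for 8 of the 9 tested genes. The test was the interaction test with Benjamini-Hochberg adjustment in edgeR. Of all 14175 genes tested, 12.7% were called more positive and 15.6% more negative in spheres. The log2 fold change was more positive in spheres by 0.56 for EGFR, 0.88 for EREG and 0.51 for HBEGF. It was more negative in spheres for ERBB2 (-1.32), ERBB3 (-0.99), AREG (-0.43), TGFA (-1.44) and ERRFI1 (-1.09). For ERBB3 and EGFR the 2 cultures moved in opposite directions past the threshold, whereas for AREG and EREG both cultures moved down. The call for EGFR in adherent cells was lost in 11 of 13 alternative analyses. The differences between cultures for AREG and HBEGF were each lost in 8 of 18 alternative analyses, and the other 6 differences passed in all of them.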

How the results depend on the processing

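No fold change of the 9 tested genes changed sign under any alternative run. Over the alternatives, 566 of their values kept their side of the threshold, 54 no longer passed and 10 newly passed. The number of genes called ranged from 6 to 9 in adherent cells (8 in the analysis reported), 6 to 8 in spheres (6), 6 to 8 between cultures in shCtrl cells (8), 6 to 9 in shSigma cells (9) and 6 to 8 for the difference between cultures (8). Leaving out single libraries gave 6 to 9, 6 to 7, 6 to 8, 6 to 9 and 6 to 7. ERBB2 in adherent cells passed without adherent shCtrl replicate 3 (adjusted p = 0.0408) or adherent shSigma replicate 3 (adjusted p = 0.0161), and with DESeq2 (adjusted p = 0.00186). The ligands and receptors other than the 10 genes had 1 call in place of 2 in each knockdown comparison with DESeq2 or with at least 10 counts in every library, and in spheres also without shCtrl replicate 1, shSigma replicate 1 or shSigma replicate 2. The shedding list had 5 calls in place of 9 in spheres in 1 fit of all 12 libraries. Among all genes tested for a difference between cultures, 44.9% of the calls were more positive in spheres, and 56.9% with at least 10 counts in every library. Over all alternatives this share ran from 45.0% to 58.4%, and it was highest without adherent shSigma replicate 3. The causes were not tested.

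With the replicate block 6, 6, 6, 9 and 7 genes were called in these comparisons. Same-numbered libraries did not all deviate together, with correlations of -0.46, 0.0023 and -0.73 in the adherent knockdown comparison, 0.036, 0.0071 and -0.045 in spheres, -0.34, -0.042 and 0.16 between cultures in shCtrl cells and 0.20, -0.025 and 0.29 in shSigma cells. As no comparison had all 3 over 0.1, same-numbered libraries were taken to share only a number. Differently numbered libraries of the adherent knockdown comparison correlated from -0.60 (shCtrl 1 with shSigma 2) to 0.71 (shCtrl 1 with shSigma 3). The reported fits held no term for such shared deviations, and their source was not tested. Depth limits EPGN, ERBB4, NRG1 and NRG3, whose values rest on few counts.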
